A study of Bos taurus and Bubalus bubalis with 9 samples.

Results

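The make-up of the circular RNA (circRNA) pool of longissimus dorsi muscle was compared between buffalo and cattle. A circRNA was identified by its back-splice junction, the point at which a downstream splice site is joined to an upstream one. Junctions of the 2 species were matched only where chromosome, start, end and strand were identical, and each junction was expressed as its share of all junction reads of its library, per 10000. Of 24221 junctions in the deposited buffalo and cattle tables, 14504 had a read in at least 1 of the 6 muscle libraries and form the set described here. They comprised 4737 junctions seen in buffalo muscle and 11998 seen in cattle muscle, of which 2231 were common to both. The question was which circRNAs make up the pool in each species, apart from its overall size.

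The animals were 3 Xinyang buffalo (Bubalus bubalis) and 3 Nanyang cattle (Bos taurus), and 1 muscle library was made from each. The labels give buffalo muscle a low and cattle muscle a high intramuscular fat content. All animals were weaned at 3 months, castrated at 6 months, fattened from 18 months and slaughtered at 30 months of age, with no further treatment. The species were kept on different farms under like feeding, and both were mapped against one assembly, UMD3.1 of cattle, so that species, farm and the fit of the reads to that genome cannot be told apart in any difference below. Back fat of the 3 cattle is given beside some values to show where a circRNA of muscle was also seen in another tissue.

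CircRNAs arise when the spliceosome joins the end of an exon to the start of the same or an earlier exon, which gives a closed ring without a cap or a poly(A) tail. The ring is resistant to exonucleases and often outlives the linear mRNA of its host gene. Skeletal muscle is known for abundant circRNAs from long, exon-rich genes of the sarcomere, the contractile unit built of thin actin filaments, thick myosin filaments and the Z-disc that anchors them. A host gene can give several rings, and which of them predominates depends on the pair of splice sites that is used.

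The values stand on few reads. The 3 buffalo libraries held 5296, 6122 and 4472 junction reads, and the 3 cattle muscle libraries held 15440, 27141 and 21901. A single read was thus worth 1.63 to 2.24 per 10000 in buffalo and 0.368 to 0.648 in cattle. Between 58.7% and 61.9% of the junctions of a buffalo library rested on a single read, against 39.8% to 54.9% in cattle. Junction reads were also a far smaller part of all reads in buffalo, with summed RPM (junction reads scaled to the library's reads) of 74.5 to 96.1 against 408 to 642. On the RPM scale this lowered the median tested junction by 1.01 and the median tested host by 1.19 on the log2 scale, whereas on the share scale the medians were 0.08 and -0.13. Differences below are therefore relative to the whole pool of a library, and those that turn on the RPM scale are named. Of 6 muscle markers checked, NEB, MYBPC1, RYR1 and MYOM1, genes of the contractile apparatus and its calcium release, had junction reads in every muscle library of both species. ACTN2 was read in 1 and LDB3 in 2 of the 3 buffalo libraries. In the 3 fat libraries NEB had 1 read and the other 5 had none. TTN and TRDN were also chosen beforehand as muscle markers, but no values under these names are given.

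The shared junctions were a minority of the kinds but carried most of the buffalo reads and about 50% of the cattle reads. They were 47.1% of the junctions of buffalo and 18.6% of those of cattle, and held 60% of buffalo reads and 50.7% of cattle reads. In single libraries the share of reads on them was 58.9% to 60.5% in buffalo and 50% to 51.3% in cattle. Only 230 junctions were read in all 6 libraries, from 198 host genes, and 208 of these were labelled exon in the deposited table. They held 28.4% of buffalo and 25.1% of cattle reads. The libraries of one species were nearer to each other than to those of the other. The Bray-Curtis dissimilarity of junction shares, which is 0 for identical and 1 for non-overlapping libraries, was 0.526 to 0.556 between buffalo libraries, 0.472 to 0.481 between cattle libraries and 0.750 to 0.786 between species. Over the 718 junctions abundant enough to be tested, the medians were 0.319, 0.227 and 0.648.

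Of these 718 junctions, which averaged at least 2 per 10000 over the 6 libraries, 104 had a higher share in buffalo (14.5% of those tested) and 125 a higher share in cattle (17.4%) by limma on log2(share + 1) at an adjusted p of 0.05. The 3 values of one species lay entirely above those of the other for 157 junctions in favour of buffalo (21.9%) and 163 in favour of cattle (22.7%), or 44.6% of those tested. Of the tested junctions, 55 had no read in cattle, of which 36 were called, and 75 had no read in buffalo, of which 69 were called. These passed the filter through one species alone and had to differ, so their count is a description only. Junctions with very few reads in one species passed it mainly through the other, and the same limit applies to their p-values. A log2 difference for such a junction depends on the pseudocount and is not a bound, so read counts are given beside it. For some, a least fold against a floor of 3 reads over the absent species is given too. Among the 223 tested junctions that were present in all 6 libraries, 34 were higher in buffalo, 14 were higher in cattle and 175 were not called. Summed over all junctions of a host gene, 68 of 978 tested hosts were higher in buffalo (6.95%) and 105 were higher in cattle (10.7%). Of the tested hosts, 17 had no read in cattle, of which 12 were called, and 46 had none in buffalo, of which 44 were called, and these too passed the filter through one species alone and had to differ, so that the counts of hosts called, overall and in the gene lists, are descriptions. The host values did not overlap for 146 in favour of buffalo (14.9%) and 192 in favour of cattle (19.6%), or 34.6% of those tested. Leaving out cattle muscle 1, 2 or 3 reduced the junctions called higher in buffalo to 68, 56 and 58 and the hosts to 29, 31 and 28, and the hosts called higher in cattle to 51, 53 and 55. The junctions called higher in cattle fell to 85, 83 and 84 without cattle muscle 1, 2 and 3. The junctions and hosts named below by the fixed rule kept their call without each library unless this is said, whereas those named after their values were seen were not refitted one library at a time.

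**Figure D1:**
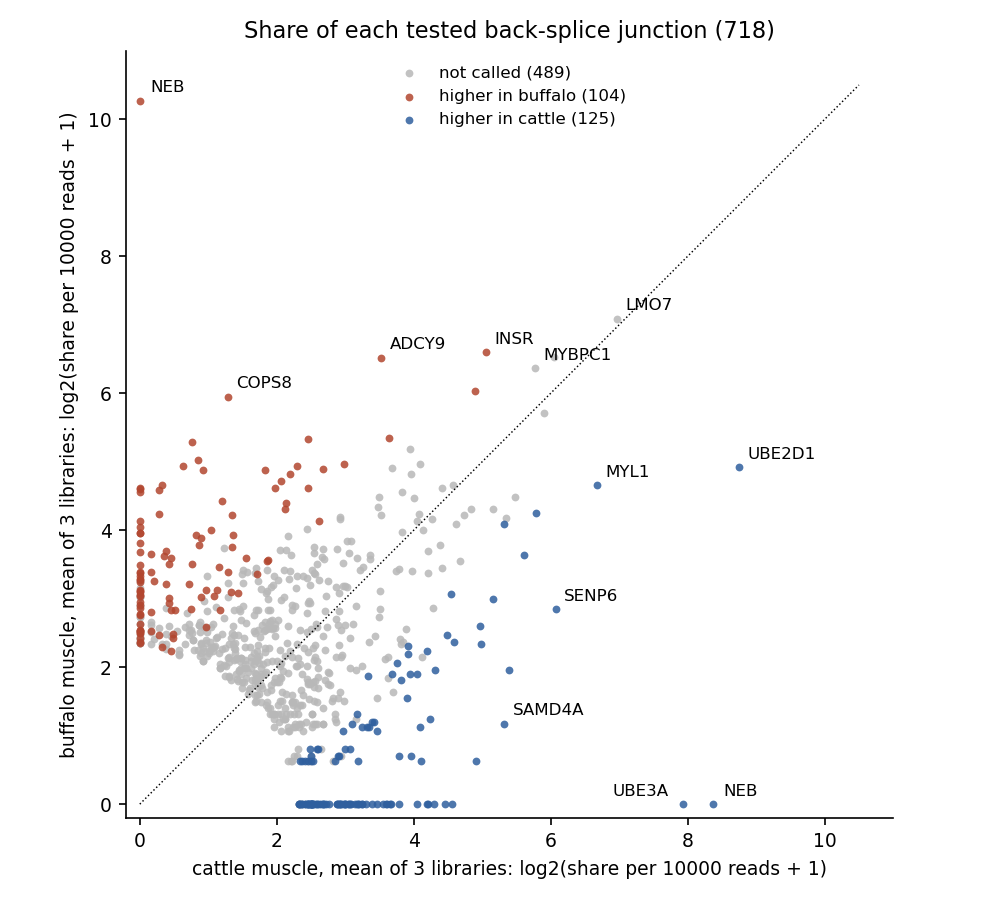
Mean share of the 718 tested junctions in cattle muscle (x axis) and buffalo muscle (y axis), each the log2 of the mean of 3 libraries per 10000 junction reads plus 1. Red points are the 104 junctions called higher in buffalo, blue points the 125 called higher in cattle and grey points those not called, and the dotted line marks equal shares. The 2 NEB junctions lie on opposite axes, LMO7 lies near the line, and UBE2D1 and UBE3A lie far on the side of cattle.

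The largest difference was in NEB. It encodes nebulin, the giant protein that runs along the thin filament and fixes its length. Buffalo and cattle each had one dominant NEB ring, and they were not the same one. The buffalo junction lay at chr2:44653304-44660629 on the plus strand, spanned 7326 bp and was labelled exon_intron in the deposited table. It had 631, 697 and 613 reads in buffalo and 0 reads in each cattle muscle library. Its share was 1191, 1139 and 1371 per 10000 in the 3 buffalo, with a mean of 1234 ± 122 (SD, n = 3), 9.12 times that of the next junction of buffalo. The share was at least 2651-fold higher than in cattle against the floor of 3 reads, and the log2 difference was 10.27. This junction passed the filter through buffalo alone and had to differ, so no test result is given for it.

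The cattle junction lay at chr2:44660522-44671994 on the same strand, spanned 11473 bp and was also of the exon_intron type. It had 575, 903 and 629 reads in cattle muscle and 0 reads in each buffalo library. Its share of 372, 333 and 287 per 10000 gave a mean of 331 ± 42.6 (SD, n = 3), at least 175-fold higher than in buffalo (log2 difference -8.37). It passed the filter through cattle alone and had to differ, so no test result is given for it either. The 2 rings overlapped by 108 bp. This stretch ended the buffalo ring and began the cattle ring, and both of these splice ends occurred in the other species with another partner. The end of the buffalo ring, for one, was joined to a start at 44659551 by 2, 10 and 7 buffalo reads and by 2 reads of cattle muscle 3. In the 3 fat libraries of cattle, the cattle junction had 0, 1 and 0 reads.

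Each dominant junction took nearly all reads of its gene. It held 94.2%, 93.1% and 93.6% of the NEB reads in the 3 buffalo and 94.7%, 93.3% and 91.0% in the 3 cattle. In all, NEB had 37 junctions in buffalo and 68 in cattle, with 11 in common. The NEB total was 1318 ± 129 per 10000 in buffalo and 355 ± 38.8 in cattle (SD, n = 3), a log2 difference of 1.89 ± 0.15 (SE, limma adjusted p = 9.4e-06), while on the RPM scale the NEB total was lower in buffalo, by -0.81. The NEB junctions other than these 2 also took a larger share in buffalo, at 73.6, 84.9 and 93.9 per 10000 against 20.7, 23.9 and 28.3, a 3.46-fold ratio with no overlap. On the RPM scale this turned, and their total was lower in buffalo. Of the 6 others that were tested, 4 were called higher in buffalo, beside 14.5% of all junctions tested, but these 4 had at most 2 cattle reads each and passed the filter on low shares through buffalo alone. Of these, the junctions at chr2:44574684-44580987 and chr2:44627124-44642568 had no cattle read, and that at chr2:44571081-44571380 had 3, 10 and 4 reads against 1, 1 and 0. The intronic junction at chr2:44659551-44660629 was the fourth, and its adjusted p rose to 0.050 without cattle muscle 2. Not called were chr2:44624630-44628127 (4, 3 and 5 reads in buffalo, 8, 5 and 10 in cattle) and chr2:44639047-44643095, with 7 reads that all came from buffalo muscle 3. Nebulin exons repeat one another closely, so the assignment of reads among them is uncertain, and this was not tested.

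**Figure D2:**
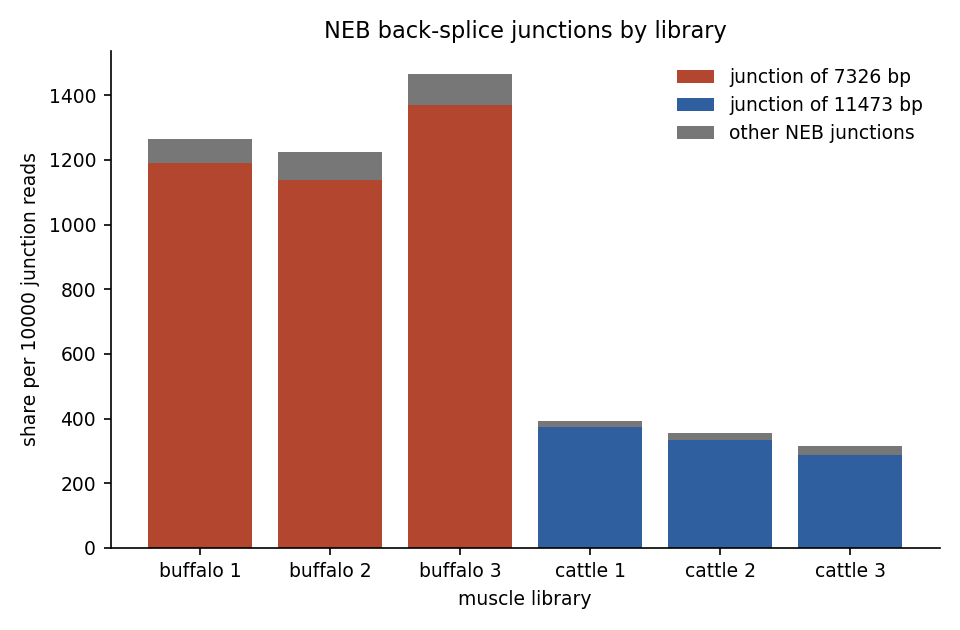
Share of NEB junctions in each muscle library, in reads per 10000 junction reads, stacked by junction. The 7326 bp junction (red) fills 1139 to 1371 per 10000 in the 3 buffalo and is absent in cattle, the 11473 bp junction (blue) fills 287 to 372 in the 3 cattle and is absent in buffalo, and all other NEB junctions (grey) take 20.7 to 93.9.

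Rings from 2 genes of the ubiquitin pathway, both among the 3 leading circRNAs of cattle muscle, were scarce or unread in buffalo. Ubiquitin is passed from E2 conjugating enzymes through E3 ligases to proteins that are to be degraded or redirected. UBE2D1 is such an E2 enzyme, and its junction at chr26:669451-673248 (minus strand, exon type, 3798 bp) was the first in rank in cattle, with 502, 1387 and 992 reads against 13, 29 and 7 in buffalo. The shares were 325, 511 and 453 per 10000 in cattle and 24.5, 47.4 and 15.7 in buffalo, without overlap. The means of 430 ± 95.1 and 29.2 ± 16.4 (SD, n = 3) differed 14.7-fold (log2 difference -3.95 ± 0.37, limma adjusted p = 3.4e-04). This junction held at least 99.8% of UBE2D1 reads in every library of both species. Cattle fat had 13, 74 and 15 reads of it, or 10.8, 35.1 and 10.6 per 10000.

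UBE3A encodes a ligase of the HECT family. Its leading junction at chr21:2404179-2410197 (minus strand, exon_intron type, 6019 bp) had 469, 381 and 624 reads in cattle muscle, 20, 42 and 17 in cattle fat and 0 in each buffalo library. The cattle mean was 243 ± 89.4 per 10000, at least 129-fold higher than in buffalo (log2 difference -7.85). No test result is given, since this junction passed the filter through cattle alone and had to differ. The start of this junction was used by another buffalo junction and its end was not. All UBE3A junctions together had 1, 3 and 2 reads in buffalo against 477, 385 and 629 in cattle. The linear UBE3A transcript stood in buffalo muscle at 71.8, 66.2 and 58.2 FPKM in the deposited mRNA table, and that of UBE2D1 stood at 30.2, 24.8 and 23.0 FPKM.

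Over the list of 51 ubiquitin genes, 41 had a junction read, 25 were tested, 4 were higher in cattle and 1 was higher in buffalo, beside a background of 10.7% and 6.95%. The other members higher in cattle were the ligases UBE3C, with 63, 102 and 99 reads against 2, 3 and 8 (log2 difference -2.38 ± 0.51, limma adjusted p = 0.012), and RNF111, with 17, 18 and 17 reads against 1, 0 and 0. The UBE3C call was lost without cattle muscle 1 or 2, with adjusted p of 0.076 and 0.060. NEDD4, also a ligase, was higher in buffalo, with 8, 6 and 6 reads against 5, 2 and 1 (log2 difference 2.62). Its cattle mean of 1.48 per 10000 was under the filter of 2, so it passed through buffalo alone and no test result is given. USP13, which removes ubiquitin, did not pass the test (log2 difference -0.52, adjusted p = 0.33). The median log2 difference of the list was -0.22, near the -0.13 of all hosts tested, while its summed share was 244 to 260 per 10000 in buffalo and 850 to 954 in cattle. Without UBE2D1 and UBE3A the list summed to 217, 207 and 224 in buffalo and 216, 228 and 213 in cattle, which overlapped. RNF111 and NEDD4 were named here after their values were seen. So was SENP6, a protease of the related SUMO system, whose junction at chr9:15487323-15489485 had 138, 164 and 109 reads in cattle muscle against 4, 4 and 2 in buffalo (log2 difference -3.21, limma adjusted p = 6.1e-04).

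**Figure D3:**
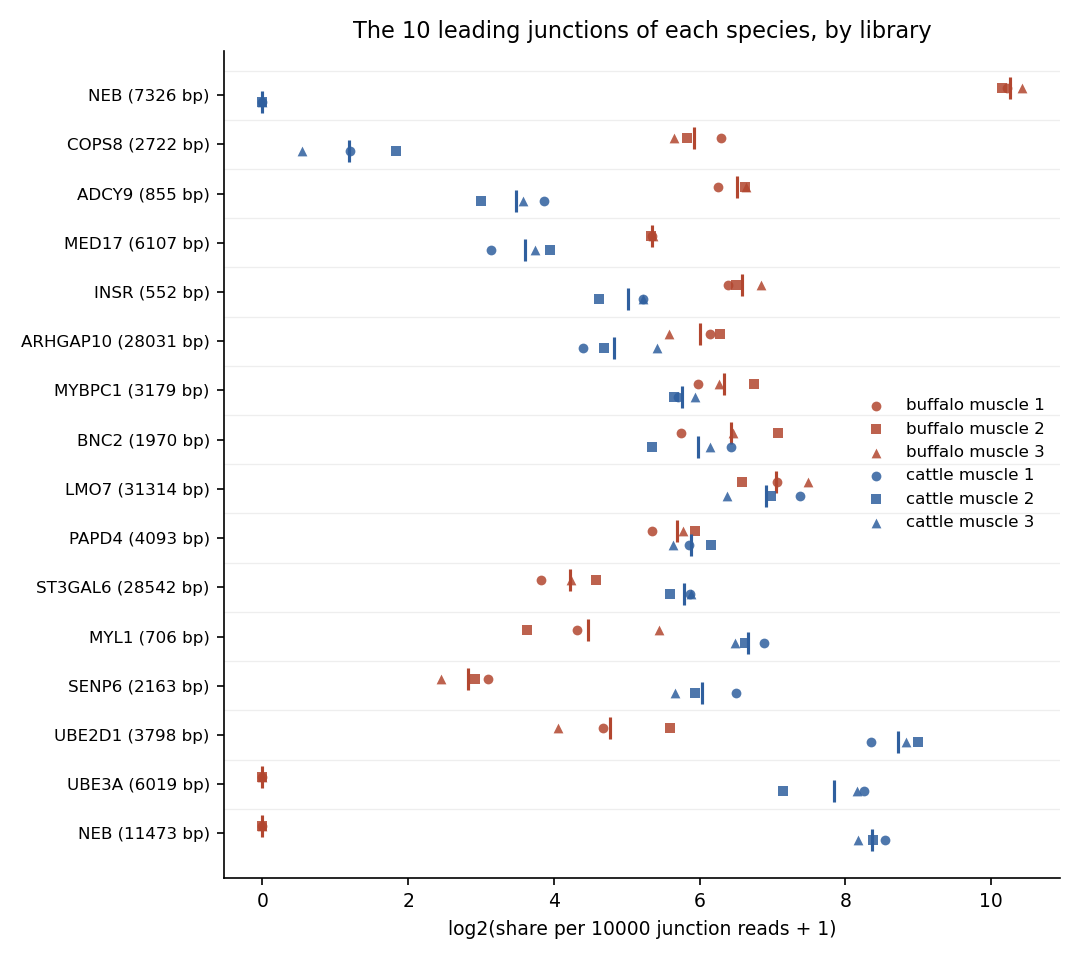
Log2(share per 10000 + 1) of the junctions that were among the first 10 of either species, in each of the 3 buffalo (red) and 3 cattle (blue) muscle libraries, with a vertical tick at the mean of each species. Junctions are named by host gene and span and ordered by the difference, and the libraries of the 2 species overlap for BNC2, LMO7 and PAPD4.

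Other leading circRNAs were held in common. LMO7, a LIM and PDZ domain protein of cell junctions and the nucleus, gave the second junction of buffalo at chr12:51190589-51221902 (plus strand, exon type, 31314 bp). It had 70, 58 and 80 reads in buffalo and 256, 341 and 179 in cattle, and its shares of 132, 94.7 and 179 against 166, 126 and 81.7 per 10000 overlapped. The means were 135 ± 42.2 and 124 ± 42.0 (SD, n = 3), and the log2 difference of 0.13 ± 0.31 did not pass the test (limma adjusted p = 0.78). It took 84.3% to 87.9% of LMO7 reads in buffalo and 74.0% to 92.1% in cattle and had 0 reads in cattle fat. Of the smaller LMO7 junctions, that at chr12:51190589-51192931 had log2 difference 0.61 (adjusted p = 0.40). That at chr12:51201755-51209400 had 0, 2 and 2 reads in buffalo against 4, 46 and 32 in cattle, and its log2 difference of -1.81 missed the threshold in limma (adjusted p = 0.13) and passed it in edgeR and DESeq2 (adjusted p of 0.0017 to 0.045). The single junction of BNC2, a zinc finger protein, was likewise not called (91.3 ± 40.7 and 65.0 ± 23.2 per 10000, log2 difference 0.45, limma adjusted p = 0.40). On the RPM scale both LMO7 and BNC2 were lower in buffalo, by -2.47 and -2.09.

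INSR encodes the insulin receptor, which starts the uptake of glucose by muscle. Its junction at chr7:17401915-17402466 (minus strand, exon type, 552 bp) had 44, 55 and 51 reads in buffalo and 56, 64 and 80 in cattle muscle. The shares were 83.1, 89.8 and 114 per 10000 in buffalo and 36.3, 23.6 and 36.5 in cattle, without overlap. The means of 95.7 ± 16.3 and 32.1 ± 7.4 (SD, n = 3) gave a log2 difference of 1.56 ± 0.28 (limma adjusted p = 0.0041). This difference turned to -1.03 on the RPM scale (adjusted p = 0.011), and it was 0.78 and not called by edgeR with TMM factors (adjusted p = 0.11). It was the sole INSR junction in buffalo and held 94.9% to 98.8% of INSR reads in cattle. Cattle fat had 33, 27 and 19 reads.

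Of 27 genes of insulin and IGF signalling, 8 were tested as hosts, and INSR was higher in buffalo and RICTOR higher in cattle, near the 6.95% and 10.7% of all hosts tested, with a list median of 0.20. RICTOR, a core subunit of the mTORC2 kinase complex, had 19, 40 and 24 reads over 10 junctions in cattle and 0, 2 and 0 reads in buffalo (log2 difference -3.07). It passed the filter through cattle alone, so no test result is given for it. The RICTOR call was also lost without cattle muscle 1, 2 or 3. PDPK1, the kinase that activates AKT, had 2, 4 and 0 reads against 49, 24 and 22 (log2 difference -2.21, adjusted p = 0.066), and TBC1D4, which holds back the glucose transporter until insulin acts, had 15, 5 and 4 against 9, 12 and 14 (log2 difference 1.10, adjusted p = 0.20). PDPK1 passed the threshold by edgeR and DESeq2 (adjusted p of 0.0039 to 0.042).

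Few hosts of the contractile apparatus were abundant enough to be tested. Of the 43 sarcomere and Z-disc genes, 26 had a junction read and 9 were tested. NEB was higher in buffalo and MYPN, the Z-disc protein myopalladin, was higher in cattle, at 35.6, 35 and 32.9 per 10000 against 11.3, 14.7 and 11.2 (log2 difference -1.41 ± 0.37, limma adjusted p = 0.022). The MYPN call was lost without cattle muscle 1, 2 or 3 (adjusted p of 0.055, 0.057 and 0.060) and with no filter (0.10). At 1 of 9 in each direction the list was near the 6.95% and 10.7% of all hosts, and its median was -0.17. The 9 tested hosts included none without a gene symbol. LMO7, described above, and MYBPC1, a myosin binding protein of the thick filament, were the other large hosts of this list. MYBPC1 had 160, 163 and 136 per 10000 in buffalo and 190, 143 and 188 in cattle. The MYBPC1 total was not called (log2 difference -0.17, limma adjusted p = 0.64).

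Of the 9 MYBPC1 junctions tested, 4 were called higher in cattle, 0 higher in buffalo and 5 were not called, beside 31.9% of all junctions called in either direction. The junction at chr5:65814732-65821075 had shares of 3.78, 4.90 and 0 in buffalo and 47.3, 29.5 and 46.6 in cattle (log2 difference -3.76, limma adjusted p = 0.0041). The junction at chr5:65793625-65835493 was also higher in cattle, at 22, 21.7 and 23.3 against 5.66, 9.80 and 6.71. The leading MYBPC1 junction of both species, at chr5:65790613-65793791, was not called by its share (limma adjusted p = 0.13). It took 38.8%, 65.0% and 55.7% of the gene's reads in buffalo and 27.0%, 34.4% and 32.0% in cattle, without overlap. These junctions were singled out after their values were seen.

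Of 25 genes of myosin, actin, troponin and tropomyosin, 10 had a read, 3 were tested and 2 were higher in cattle, beside 10.7% of all hosts, with a median of -2.16. MYL1, the alkali light chain of fast fibres, had at chr2:98530615-98531320 181, 266 and 195 reads in cattle muscle, 10, 7 and 19 in buffalo and 0 in fat. Its shares of 117, 98.0 and 89.0 against 18.9, 11.4 and 42.5 per 10000 did not overlap (log2 difference -2.21 ± 0.43, limma adjusted p = 0.0056), and the call was just lost without cattle muscle 1 (adjusted p = 0.050, and 0.058 for the MYL1 total). MYLK2, the myosin light chain kinase of skeletal muscle, had 9, 20 and 16 reads against 1, 0 and 0 (log2 difference -2.45). It passed the filter through cattle alone, so no test result is given for it. The MYLK2 call was also lost without buffalo muscle 2, without cattle muscle 1, 2 or 3, with no filter and by DESeq2. TPM1, a tropomyosin, was not called (-0.46, adjusted p = 0.67).

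A myosin junction outside these counts, since the table gives it a joint host of several genes, ran the other way. The junction at chr10:21333554-21361063 (plus strand, exon_intron type, 27510 bp) was assigned in the table to MYH6, MYH7 and the intronic bta-mir-208b together. It had 13, 11 and 12 reads in buffalo and 1, 0 and 0 in cattle muscle (log2 difference 4.33). This junction passed the filter through buffalo alone, so no test result is given for it. MYH6 and MYH7 are the adjacent, nearly identical heavy chain genes of cardiac and slow fibres, so its assignment is uncertain. A large unnamed host, ENSBTAG00000026986 on chromosome 2, with 38 junctions in buffalo and 90 in cattle, was also higher in buffalo, at 160, 113 and 125 per 10000 against 35.6, 41.6 and 46.6 (log2 difference 1.65 ± 0.28, limma adjusted p = 0.0039). On the RPM scale it was lower in buffalo, by -0.97. It had 0 reads in each cattle fat library. Lacking a gene symbol, it was not counted in the sarcomere list or any other gene list, and its gene was not identified.

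Of 35 genes of excitation-contraction coupling and the sarcolemma, 12 were tested, 2 were higher in buffalo and 2 were higher in cattle, beside 6.95% and 10.7% of all hosts, with a median of 0.21. ATP2A1, the calcium pump of fast fibres, had 34.0, 18.0 and 33.5 per 10000 in buffalo and 2.59, 2.21 and 6.39 in cattle (log2 difference 2.69 ± 0.51, limma adjusted p = 0.0063). RYR1, the calcium release channel, had 13.2, 21.2 and 11.2 against 3.89, 5.53 and 4.11 (log2 difference 1.52 ± 0.49, limma adjusted p = 0.047). The RYR1 call was lost without any 1 of cattle muscle 1, 2 and 3 or buffalo muscle 1 and 2 (adjusted p of 0.063 to 0.13), with no filter (0.20), a mean share of at least 1 (0.066), median centring (0.051), TMM (0.11), DESeq2 (0.13) or a replicate block (0.053), and on the RPM scale its difference was -0.62. The 2 members higher in cattle were ANK3, an ankyrin of the membrane skeleton (1, 1 and 1 reads against 20, 38 and 28), and UTRN, the dystrophin relative utrophin (0, 3 and 1 against 20, 32 and 22), both named after their values were seen. CLCN1, the chloride channel of the fibre membrane, and CACNA2D1, a calcium channel subunit, were not called (log2 differences of 0.62 and 1.07, adjusted p of 0.41 and 0.25).

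Further junctions that were higher in buffalo came from genes of varied function. ADCY9, an adenylyl cyclase, had at chr25:3266443-3267297 (minus strand, 855 bp) 40, 60 and 44 reads in buffalo and 21, 19 and 24 in cattle. The shares of 75.5, 98.0 and 98.4 against 13.6, 7.0 and 11 per 10000 differed 8.62-fold without overlap (log2 difference 3.02 ± 0.34, limma adjusted p = 5.1e-04). COPS8, a subunit of the COP9 signalosome that acts on cullin ligases, had at chr3:117181478-117184199 41, 34 and 22 reads against 2, 7 and 1 (log2 difference 4.73). Its cattle mean of 1.44 per 10000 was under the filter of 2, so it passed through buffalo alone and no test result is given. ELF2, a transcription factor of the ETS family, had at chr17:18811603-18813214 17, 14 and 7 reads and none in cattle, at least 50.6-fold higher. PICALM, which assembles clathrin coats, had at chr29:9641525-9643851 11, 11 and 14 reads in buffalo, none in cattle muscle and 1 in cattle fat, at least 50.2-fold higher.

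GFM2, an elongation factor of mitochondrial translation, had at chr20:6691873-6692376 16, 22 and 10 reads in buffalo against 2, 1 and 0 in cattle. RPAP2, a phosphatase of RNA polymerase II, had at chr3:51230675-51252206 14, 16 and 9 reads against 0, 2 and 0. A junction of ENSBTAG00000026986 at chr2:18133664-18133942 had 16, 17 and 25 reads against 0, 2 and 3. These 3 junctions had log2 differences of 4.36 to 4.53. They passed the filter through buffalo alone, so no test result is given for them. At host level, the largest differences in favour of buffalo were ELF2 (4.78), COPS8 (4.73), the MYH6 and MYH7 locus (4.18), GRIP2 (3.86), a scaffold of glutamate receptors, and ASB12 (3.74), a SOCS box protein. GRIP2 and ASB12 had 5, 14 and 5 and 2, 14 and 9 reads in buffalo and no junction in cattle muscle, so their log2 differences and rank depend on the pseudocount.

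The further junctions higher in cattle were mostly absent from buffalo. SAMD4A, a repressor of translation that binds RNA, had at chr10:67430995-67431513 42, 71 and 139 reads in cattle against 2, 0 and 0 in buffalo (log2 difference -4.45). This junction passed the filter through cattle alone, so no test result is given for it. As a host, SAMD4A was called (-4.19), but not without cattle muscle 1 (limma adjusted p = 0.058). DLG1, a scaffold protein of the membrane, had at chr1:72179980-72201465 43, 44 and 41 reads and none in buffalo, at least 11.1-fold higher. A second DLG1 junction with the same end, at chr1:72196316-72201465, had 55, 2 and 68 reads in cattle, so that cattle muscle 2 stood apart from the others. It had no buffalo read and passed the filter through cattle alone. No test result is given for it (log2 difference -3.66), and its call was lost when any library but cattle muscle 2 was left out.

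GNPTAB, the enzyme that tags lysosomal proteins with mannose 6-phosphate, had at chr5:65944130-65952713 62, 52 and 61 reads in cattle against 0, 1 and 0 in buffalo. SCAF8, a binding partner of RNA polymerase II (chr9:92829887-92841901), had 30, 38 and 49 reads and none in buffalo, at least 9.85-fold higher. LIFR, a cytokine receptor (chr20:35935686-35946301), had 35, 28 and 43, and AKIRIN2, a nuclear factor (chr9:63144654-63146741), had 34, 39 and 34, both with none in buffalo. The log2 differences of these 4 junctions were -4.14 to -4.38. They passed the filter through cattle alone, so no test result is given for them. All 4 also had reads in cattle fat, SCAF8 only 0, 0 and 3. The linear transcripts of these hosts were listed in buffalo muscle at mean levels from 6.64 FPKM (GNPTAB) to 67.4 FPKM (LIFR).

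Lists of genes less bound to muscle are given beside the same 6.95% and 10.7% of all hosts tested. Among 35 hosts known to give circRNAs in several mammals, 18 were tested, and 3 were higher and 0 lower in buffalo, with a median of -0.04. PICALM had 92.5, 68.6 and 93.9 per 10000 against 30.4, 42.4 and 31.5 (log2 difference 1.27 ± 0.30, limma adjusted p = 0.017, 0.060 without cattle muscle 1 or cattle muscle 3, and 0.090 with TMM). ARHGAP10 had 96.3, 93.1 and 73.8 against 25.3, 49.0 and 53.9 (1.08 ± 0.34, limma adjusted p = 0.041), which was lost without any 1 of the 6 libraries (0.051 to 0.14), and with no filter (0.10), a mean share of at least 1 (0.058), a pseudocount of 0.5 (0.052), TMM (0.24) or DESeq2 (0.15). Both were lower in buffalo on the RPM scale, by -1.30 and -1.49. ZBTB44, a zinc finger protein named after its values were seen, had 4, 10 and 3 reads in buffalo and none in cattle. HIPK3, a kinase whose ring is among the best known in mammals, was not called (-0.75, adjusted p = 0.17).

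Of 44 chromatin regulators, 16 were tested and only CHD9, a remodeller with 0 reads in buffalo and 3, 14 and 11 in cattle, was called, again named after its values were seen. It passed the filter through cattle alone. The values of the more abundant members were 0.70 for KMT2C, -0.88 for ARID1A, -0.67 for EHMT1 and -0.93 for CHD2 (adjusted p of 0.15 to 0.48). Of 42 RNA binding and splicing genes, 11 were tested and UPF2, a factor of nonsense-mediated decay, was called higher in cattle with 5, 19 and 14 reads against none, having passed the filter through cattle alone. PAN3 and XRN1, which shorten and degrade mRNA, and PUM2, a repressor of translation, were not called (-0.85, -0.90 and -0.21). The list medians were -0.09 for chromatin and -0.43 for RNA binding.

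Of 27 genes of mitochondria and fatty acid use, 4 were tested. ACACB, the acetyl-CoA carboxylase that controls entry of fatty acids into mitochondria, was higher in buffalo, at 35.9, 42.5 and 29.1 per 10000 against 5.18, 5.16 and 8.22 (log2 difference 2.37 ± 0.42, limma adjusted p = 0.0045, and -0.13 on the RPM scale). OGDH of the citric acid cycle, OXCT1 of ketone use and PPARGC1A, a regulator of mitochondrial number, were not called (-1.81, -0.32 and -1.10).

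Markers of other cells were scarce in the junction reads of both species. Of 18 adipocyte genes, 4 had a read and 1, PLIN4, was tested and not called (log2 difference 1.14, adjusted p = 0.42). The summed adipocyte share was 0 to 6.71 per 10000 in buffalo and 1.47 to 4.53 in cattle muscle, against 16.6 to 25.4 in cattle fat. Endothelial and mural genes summed to 2.24 to 3.78 and 4.57 to 12.3, and FLT1 was not called (-0.50). Fibroblast and matrix genes summed to 8.94 to 13.1 and 17.4 to 22.5, and LAMA2 was not called (-0.49). Immune genes reached at most 2.24 and 2.74, and the 1 satellite cell gene seen had 0 reads in buffalo and at most 1.47 per 10000 in cattle. The ranges of the endothelial and the fibroblast lists were lower in buffalo without overlap, and their part in the differences above was not tested. In bulk tissue, fewer cells of a type and less RNA per cell cannot be told apart.

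Junctions read in all 3 libraries of one species and in none of the other were counted next, as a description. There were 66 in buffalo, of 394 junctions read in all 3 buffalo, and 674 in cattle, of 1464. They held 16.4% of buffalo reads and 19.9% of cattle reads. The counts are not alike in depth. All 66 buffalo junctions would have had at least 10 reads in cattle at an equal share, whereas 240 of the cattle junctions would have had at least 3 and only 38 at least 10 reads in buffalo. A count of 0 over the 3 libraries allows a share of up to 0.465 per 10000 in cattle and 1.89 in buffalo, counting error only. With at least 2 reads asked of each library, 22 and 300 remained.

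These exclusive junctions of buffalo were led by NEB at 1234 per 10000, followed at a distance by ELF2 (23.5), PICALM (23.3) and LRRC40 (22.6), a leucine-rich repeat protein with 5, 11 and 18 reads at chr3:75296578-75299966. Those of cattle were led by NEB (331), UBE3A (243) and the 2 DLG1 junctions (22.5 and 20.9). Many used splice ends known in the other species. Of the buffalo junctions, 37 (56.1%) had a start or an end that occurred in cattle with another partner, and of the cattle junctions 252 (37.4%) did in buffalo. The host had junction reads in the other species for 47 of the 63 buffalo junctions with a host (74.6%) and for 409 of 648 cattle junctions (63.1%). Exon-type junctions were 75.8% of the buffalo set, against 88.8% of all junctions read in all 3 buffalo, and 85.8% of the cattle set, against 88.0%. The median span was 3996.5 bp in the buffalo set and 8208.5 bp in the cattle set, beside 6942.5 and 8127 bp for all junctions read in the 3 libraries of each.

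The linear transcript was mostly listed where no ring was read in buffalo, which does not show that the ring was absent. Of 219 hosts with a cattle-exclusive junction and no junction read in buffalo at all, 216 could be paired with a transcript of the buffalo mRNA table, and 200 of these (92.6%) were above 1 FPKM in all 3 buffalo, with a median of 9.34 FPKM. The same held for 97.2% of all hosts of junctions read in the 3 cattle, with a median of 13.2 FPKM. For the hosts called higher in cattle it was 98.1%, for those called higher in buffalo 95.5% and for all hosts tested 98.5%. NEB and ENSBTAG00000026986 were listed at 0 FPKM in all 3 buffalo, as was the myosin gene MYH1, and such a 0 may be a failed estimate. Cattle mRNA values were not used here, so the ratio of ring to linear transcript was not compared.

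The choice of junction within a host was examined for the 50 hosts with at least 30 junction reads in each species, by the percent of a host's reads on each of its junctions. This measure depends on neither the size of the pool nor the level of the host. The leading junction was the same in 35 hosts and differed in 15, in some by only a few reads. It was the same in 11 of the 19 hosts with at least 60 reads. Of 127 junctions with at least 10% use in either species, 66 (52.0%) had values without overlap between the species. In 8 of the 15 changed hosts the 2 leading junctions shared one splice end and differed in the other.

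Hosts with a changed leading junction other than NEB, ST3GAL6, ENSBTAG00000026986, MLIP and KANSL1L were named after their values were seen. GFM2 was one of the 8. Its junctions at chr20:6691873-6692376 and chr20:6690071-6692376 share their end. The first took 55.2%, 61.1% and 66.7% of GFM2 reads in buffalo and 6.67%, 2.44% and 0% in cattle, and the second 3.45%, 11.1% and 6.67% against 70.0%, 75.6% and 92.7%. ST3GAL6, a sialyltransferase, kept its start at 42678671 on chromosome 1 and moved its end from 42706177 to 42707212. The shorter ring took 32.0%, 41.9% and 26.7% of reads in buffalo and at most 0.877% in cattle, and the longer 28.0%, 32.6% and 53.3% against 78.1%, 89.5% and 90.1%. COQ3, an enzyme of ubiquinone synthesis, likewise kept its start, and its junction at chr9:51063554-51077593 took 29.0%, 75.0% and 38.1% in buffalo and none in cattle. In none of these did the values of the 2 species overlap.

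LARP1B, an RNA binding protein, made a ring at chr17:30054876-30064195 with 81.2%, 60.9% and 83.3% of its reads in buffalo and at most 8.0% in cattle, where the ring at chr17:30061534-30064195 took 21.2% to 37.5% and had no buffalo read. DOCK1, an activator of the GTPase RAC, moved to another part of the gene. The junction at chr26:46792157-46805693 took 63.2% to 90.9% in buffalo and 13.0% to 22.5% in cattle, and that at chr26:46813634-46822655 took 20.8% to 50% in cattle and had no buffalo read. ACACB moved in the same way, with 76.9% to 80.8% of its reads on chr17:66120820-66129058 in buffalo against 11.1% to 21.4%. KANSL1L, a relative of a chromatin complex subunit, had 64.6% to 79.6% on chr2:98377451-98378567 in cattle against 18.2% to 50%. ENSBTAG00000026986 had 18.8%, 24.6% and 44.6% of its reads on chr2:18133664-18133942 in buffalo and 0%, 1.77% and 2.94% in cattle, and 11.8%, 7.25% and 1.79% on chr2:18165218-18168702 against 14.5%, 44.2% and 31.4%. As totals, ST3GAL6 (log2 difference -0.38) and KANSL1L (-0.89) were not called.

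MLIP, a muscle protein that binds lamin, had different leading junctions with overlapping use, since the first took 20% to 25.9% in buffalo and 18.2% to 31.4% in cattle, and its total was not called (log2 difference 0.13). In BOLL, LARP4 and PHKB the use of the leading buffalo junction overlapped between species, but that of the leading cattle junction did not. The latter took 0% to 9.09% of PHKB reads in buffalo and 50% to 57.1% in cattle. In UBAP2 and BIRC6 neither of the leading junctions overlapped. In all, 6 hosts had junctions called in opposite directions in the test of shares, namely DOCK1, GFM2, LARP1B, NEB, ST3GAL6 and USP13. Of the 101 junctions called higher in buffalo that had a host, the host total was called the same way for 68 and not called for 33. Of 118 called higher in cattle, the host was called the same way for 75, not called for 40 and called the other way for 3.

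**Figure D4:**
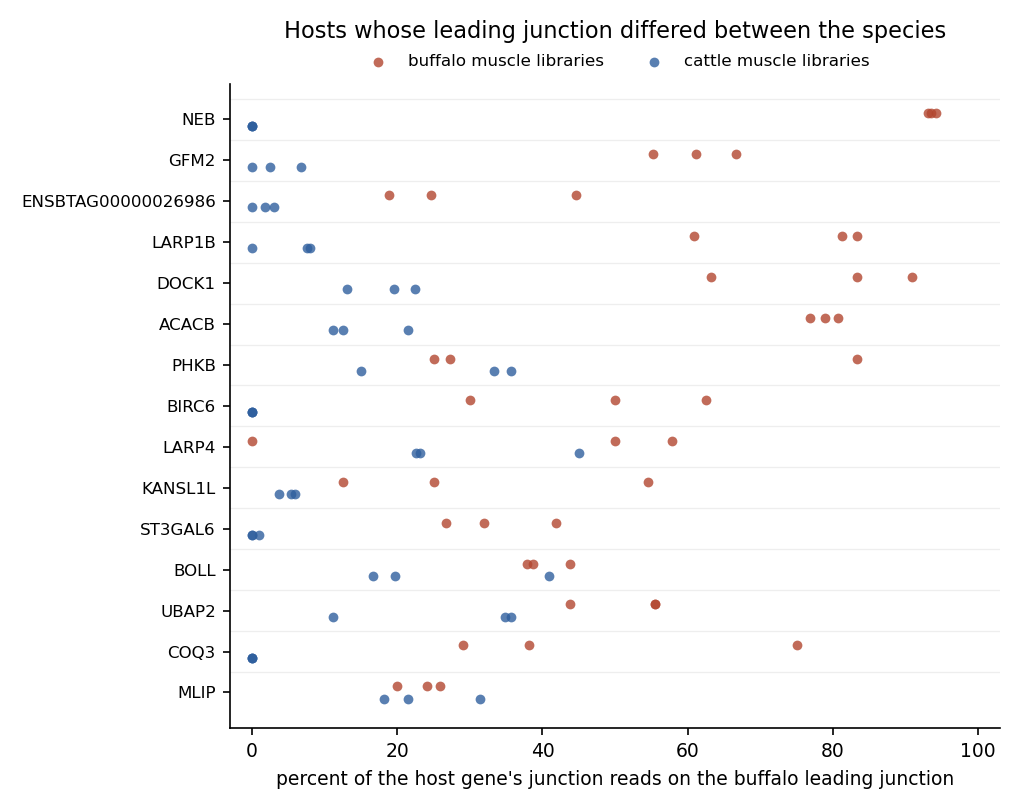
Percent of a host gene's junction reads on the junction that led in buffalo, in each buffalo (red) and cattle (blue) muscle library, for the 15 hosts whose leading junction differed. Hosts are ordered by the summed difference in use, NEB being highest with 93.1% to 94.2% in buffalo and 0% in cattle, and the libraries of the species overlap for MLIP, BOLL, LARP4 and PHKB.

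As whole pools, buffalo libraries were less even. With 3 libraries a species, the exact two-sided permutation test has 20 arrangements and cannot go below p = 0.1, and all p-values here were adjusted over 9 measures. The 10 leading junctions held 18.4%, 19.1% and 21.7% of reads in buffalo and 16.2%, 14.9% and 15.2% in cattle (exact p = 0.1, adjusted 0.15). NEB alone held 12.7%, 12.2% and 14.6% against 3.93%, 3.57% and 3.16% (exact p = 0.1, adjusted 0.15). Without NEB junctions the difference in the leading 10 turned from 4.30 to -4.03 percentage points.

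The types of junction also differed in their shares. Exon-type circRNAs held 77.9%, 79.1% and 78.7% of buffalo reads and 82.9%, 85.5% and 83.7% of cattle reads, and exon_intron circRNAs held 19.2%, 18.3% and 19.8% against 13.6%, 11.9% and 12.7% (each exact p = 0.1, adjusted 0.15). Without NEB the differences turned from -5.50 to 2.72 and from 6.41 to -1.92 percentage points. Intronic and intergenic circRNAs held 0.397% to 0.735% and 0.962% to 2.45% in buffalo and 0.693% to 1.05% and 1.91% to 2.70% in cattle, with overlap (exact p = 0.2 and 0.4). The read-weighted median span was 7326 bp in each buffalo, which is the NEB junction itself, and 7088, 7943 and 7186 bp in cattle (exact p = 1).

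Fewer kinds of ring were expected in an equal number of junction reads of each buffalo library, while library reads were not matched. In 4472 reads, the size of the smallest library, 1878, 1942 and 1846 junctions were expected in buffalo and 2214, 2329 and 2185 in cattle, and in 3972 reads with a host 1170, 1234 and 1200 host genes against 1390, 1447 and 1363 (each exact p = 0.1, adjusted 0.15, the smallest that the test allows). The differences of -353.8 junctions and -198.5 hosts were -195.3 and -114.8 without NEB, and -694.7 and -392.1 without single-read junctions, each at the smaller equal number of reads that remained. The latter setting removes junctions up to a higher share in buffalo, where 1 read is worth more, which by itself widens the difference.

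**Figure D5:**
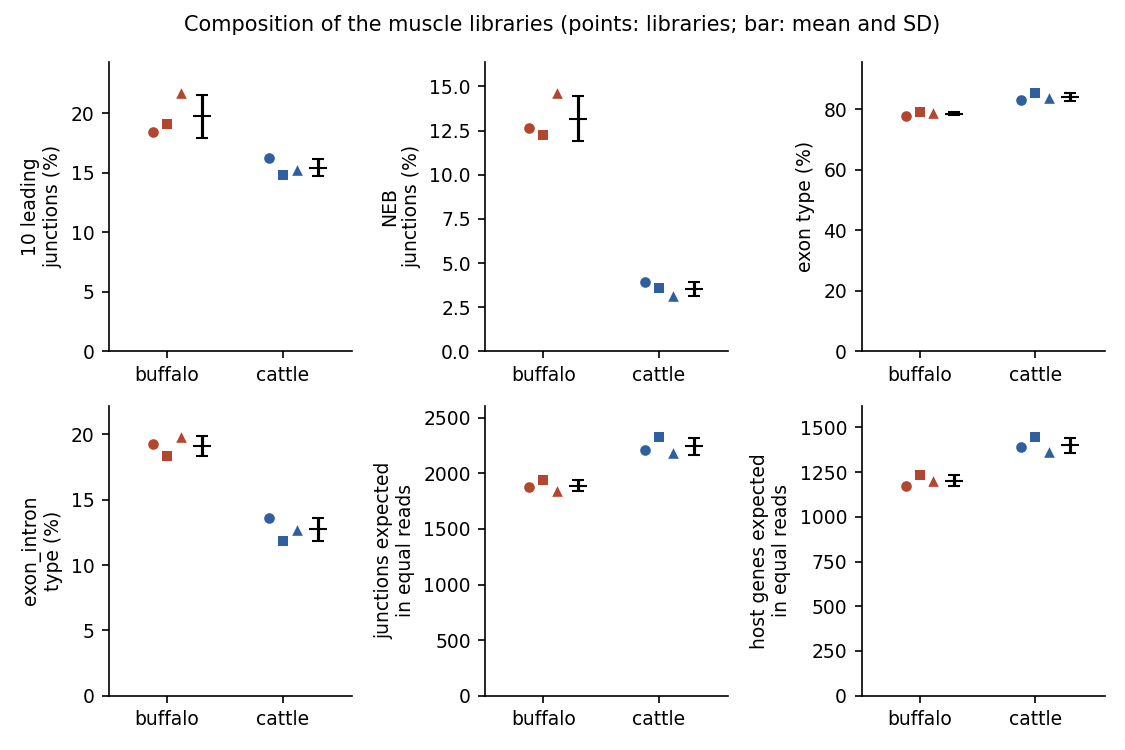
Measures of each muscle library by species, with 1 point per library and the mean with its SD as a bar, all axes starting at 0. The 3 buffalo lie above the 3 cattle in the percent of reads on the 10 leading junctions, on NEB and on exon_intron circRNAs, and below them in exon-type reads and in the junctions and host genes expected in an equal number of reads.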

How the data were processed

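CircRNA junctions were measured by RNA sequencing of 3 buffalo and 3 cattle longissimus dorsi samples, from about 2 µg of total RNA each. Per the labels and methods, the authors trimmed reads with Trim Galore, aligned both species to cattle UMD3.1 with STAR and deposited junction abundances as RPM. The circRNA caller is not given in the sources used here. Deposited FPKM values of buffalo mRNA were calculated by the authors with Cuffdiff after assembly with Cufflinks 2.2.1, and were used only as levels. The deposited tables also hold 3 buffalo columns that were not used.

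Each RPM value was a whole multiple of the value of 1 read within a tolerance of 0.01 reads for 100% of values, and reads were recovered from it. Library sizes were 60015033 to 65777231 reads in buffalo and 35712276 to 42265538 in cattle. Reads were divided by the junction reads of the library and given per 10000. Junctions or hosts with a mean share of at least 2 over the 6 libraries were tested by limma 3.58.1 with a trended variance on log2(share + 1), with Benjamini-Hochberg adjustment over all of them at 0.05 (R 4.3.3). The log2 differences of shares from limma carry this pseudocount of 1 unless another is named, which understates the change of low junctions. Those on the RPM scale carry a pseudocount of 0.1, and those of edgeR and DESeq2 come from their own models. Library measures were compared by exact two-sided permutation tests in scipy 1.17.1. The fits were tested on simulated data, and no result of that check is given or used here. As alternatives, edgeR 4.0.16 and DESeq2 1.42.0 were run on the recovered reads, and pseudocounts, filters, scaling, matching of ends within 5 bp, a replicate block and omission of each library were tried.

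Named junctions were the 5 with the highest share in each species, the 8 called without overlap with the largest difference in each direction, the 4 leading exclusive ones of each species and every tested junction of NEB, LMO7, INSR and UBE2D1. Named hosts were the 5 with the largest called difference in each direction, up to 4 of the most abundant tested members of each gene list, and the 5 with most reads among hosts with a changed leading junction. Others are named as chosen after their values were seen. Members, lists and rules were chosen with earlier results of these data known. Each library is 1 animal, and intervals and floors cover counting error only, since reads carry no molecular identifiers.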

Additional observations from a re-analysis of the deposited data

How the results depend on the processing

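Junctions rested on few reads, 1 read being worth up to 2.24 per 10000 in buffalo, and how far this limited the calls was not tested. Calls were 104 junctions higher in buffalo and 125 higher in cattle, and 68 and 105 hosts. With no filter on low shares, 57 and 61 junctions and 43 and 62 hosts were called. With a mean share of at least 5, 62 and 56 junctions and 48 and 55 hosts were called. On the RPM scale 29 and 373 junctions and 8 and 641 hosts were called, so that calls in favour of buffalo fell from 45.4% to 7.21% of junction calls and from 39.3% to 1.23% of host calls. With edgeR and TMM factors 99 junctions were higher in buffalo, near the 104, and 178 were higher in cattle, so that the former were 35.7% of junction calls. The named calls lost on the RPM scale without a turn were ADCY9 (0.38), ATP2A1 (0.18) and the NEB junctions at chr2:44571081-44571380 (0.67) and chr2:44659551-44660629 (0.74). DESeq2 called 69 junctions higher in buffalo and 115 higher in cattle, and 47 and 65 hosts. Leaving out one library at a time gave 56 to 113 and 83 to 117 junctions and 28 to 67 and 51 to 110 hosts. No call turned in direction under any setting but RPM, where 2 junctions and 8 hosts were called the other way.

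With the replicate number as a block, 112 and 136 junctions and 67 and 111 hosts were called, and 215 of 229 junction and 156 of 173 host calls remained. Of the named items, 2 gained a call with the block and 1, RYR1, lost it. With TMM factors 7 named items gained a call and 4 lost it. Same-numbered libraries correlated in their deviations at -0.03, -0.07 and 0.09, so they share only a number, and not every library correlated best with its own number.

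Directions of named items that turned on the RPM scale were as follows. For junctions they were LMO7 (-2.47 and -1.12), NEB at chr2:44624630-44628127 (-0.86), INSR (-1.03) and BNC2 (-2.09). For hosts they were LMO7 (-2.56), MLIP (-2.28), BNC2 (-2.09), PICALM (-1.30), ARHGAP10 (-1.49), CLCN1 (-1.37), KMT2C (-1.11), INSR (-1.07), ENSBTAG00000026986 (-0.97), TBC1D4 (-0.90), CACNA2D1 (-0.85), NEB (-0.81), RYR1 (-0.62), ACACB (-0.13) and PLIN4 (-0.025). This setting scales by all reads of the library rather than by its junction reads. The other turns were among items not called. With TMM they were the LMO7 junctions (-0.69 and -0.068), BNC2 (-0.27 as a junction) and the hosts LMO7 (-0.35) and MLIP (-0.31), with DESeq2 the long LMO7 junction (-0.50), BNC2 (-0.030) and the hosts LMO7 (-0.24) and MLIP (-0.20), with median centring the long LMO7 junction (-0.049), and with edgeR on junction totals OXCT1 (0.18). Leaving out one library at a time, the long LMO7 junction ranged from -0.14 to 0.37 (-0.093 without buffalo muscle 3), the hosts LMO7 from -0.16 to 0.30 (-0.14 without cattle muscle 3), MLIP from -0.25 to 0.43 (-0.15 without buffalo muscle 3), CHD2 from -1.84 to 0.21, FLT1 from -0.91 to 0.22, OXCT1 from -0.81 to 0.56, TPM1 from -1.0 to 0.0094 and PUM2 from -0.58 to 0.20 (0.10 without cattle muscle 1). The cause of these turns was not tested.

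Without NEB, the differences between buffalo and cattle turned to -4.03 percentage points for the 10 leading junctions, 2.72 for exon and -1.92 for exon_intron circRNAs and 785 bp for the median span. The difference in span was 300.3 bp without single-read junctions and -238.5 to 189 bp without single libraries. Over tested junctions only, median dissimilarities were 0.319 within buffalo, 0.227 within cattle and 0.648 between species. Exclusive junctions numbered 22 in buffalo and 300 in cattle with at least 2 reads in each library, and 77 to 158 and 761 to 1287 with one library left out, when fewer libraries had to agree. The share of hosts with the same leading junction was 61.3% to 79.3% with one library left out.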
